A study of Mus musculus with 6 samples.

Results

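The transcripts described here are 56 genes of the cell division cycle, chosen by gene symbol. Their levels were measured in mouse kidneys in which Pkhd1Cre deletes Pkd2, with and without the microRNA miR-214. All 56 had an entry among the 20138 genes of the authors' deposited table. By role, 10 act at entry into S phase (G1/S entry), 14 in DNA replication, 27 in G2 phase and mitosis (G2/M), and 5 restrain the cycle. Kidneys came from 6 mice at postnatal day 35. The 3 control animals, Pkd2-KO, had the genotype Pkhd1Cre; Pkd2 F/F, and the other 3, Pkd2-miR-214-KO, had the same alleles and miR-214null. Both groups therefore lack Pkd2, the gene of the cation channel polycystin-2, only where Cre driven by the Pkhd1 promoter is active. The labels do not say which tubule segments that covers, and cells without Cre keep Pkd2. No kidney with intact Pkd2 was part of the comparison, so nothing here measures the cycle genes against healthy tissue. RNA was taken from the organ as a whole, and fewer dividing cells cannot be told apart from less transcript per dividing cell.

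A cell starts to divide when D-type and E-type cyclins, with their kinases, inactivate the retinoblastoma protein and release E2F transcription factors. E2F then drives the genes that license origins, unwind DNA and supply nucleotides, and a later wave of genes, bound by NF-Y, B-Myb and FoxM1, builds the spindle and divides the cell. Inhibitors of the Cdkn1 and Cdkn2 families hold the kinases back. Most tubule cells of an adult kidney do not divide, whereas proliferation of tubule epithelium is a known feature of polycystic kidney disease.

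The deleted microRNA gives 2 mature strands, printed here 5′ to 3′ as given by RefSeq on GRCm38.p6, the assembly of mm10, because their seeds (bases 2 to 8, in capitals) define the sites searched in the cycle genes further on.
mmu-miR-214-3p, chr1:162223438-162223459, plus strand: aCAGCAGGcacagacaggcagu
mmu-miR-214-5p, chr1:162223397-162223418, plus strand: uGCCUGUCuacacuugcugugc
The Mir214 hairpin had a log2 fold of -7.62 ± 1.08 (approximate SE) in the authors' deposited table. Its mean level there was low, -1.83 log2 CPM (reads scaled to the size of the library). Because the null genotype lacks this gene, its negative fold was taken to mean a lower level in that genotype. The direction of every fold rests on this gene, so that a positive value stands for a higher level in Pkd2-miR-214-KO. The Pkd2 fold between the groups was -0.11 ± 0.23 in the authors' deposited table, which does not check the deletion, since both groups carry it. Among defining kidney genes, the tubule genes Umod, Slc34a1 and Lrp2 stood at 11.40, 11.29 and 10.04 log2 CPM in the authors' deposited table.

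G2/M genes had the lowest median fold of the cycle and inhibitors had positive folds. The medians of G1/S and replication genes lay between, near the lower quartile of all genes. In the authors' deposited table, 27 of 27 G2/M genes had a negative log2 fold, with a median of -0.78 (0.582 times the control level) and quartiles of -0.88 and -0.67. For the 14 replication genes, all 14 folds in the authors' deposited table were also negative, but their median was -0.19 (0.879 times). The 10 genes of G1/S entry had 8 negative and 2 positive folds and a median of -0.19 in the authors' deposited table. All 5 inhibitors had positive folds there, with a median of 0.27 (1.21 times the control level). Over all genes of the authors' deposited table, 48.2% of folds were negative and 49.8% positive, with a median of 0.00 and quartiles of -0.19 and 0.19.

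No single member passed the authors' edgeR likelihood ratio test. At an adjusted p under 0.05 the count was 0 of 56, against 0.124% of all genes in the authors' deposited table (0.0199% for genes that were lower), and every member's adjusted p was 1. At an unadjusted p under 0.05 it was again 0 of 56, against 4.82% of all genes, with 1.71% lower and 3.1% higher. Under 0.1 there were 5 members, all lower (Plk1, Cenpa, Kif20a, Tk1 and Mcm5), where 8.44% of all genes had such a p and 3.44% were lower. All members were measured in the same 6 kidneys, so the uniform sign within a phase does not count as 27 or 14 separate observations. Values per animal were not analysed here, and which animals carried the differences was not tested.

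**Figure D1:**
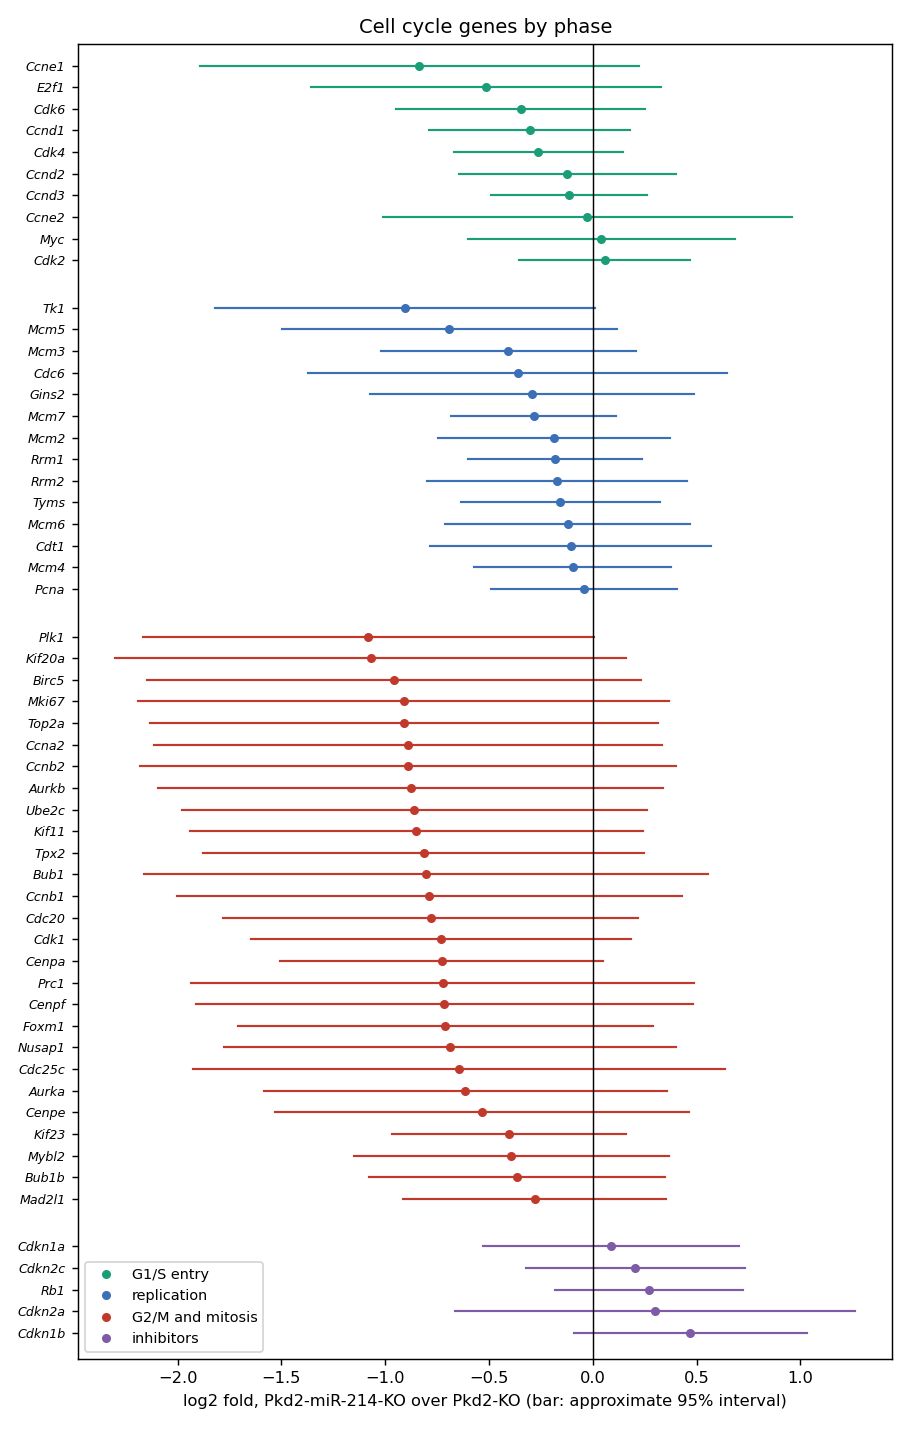
Log2 fold of each of the 56 genes (points; x axis, Pkd2-miR-214-KO over Pkd2-KO) with its approximate 95% interval (bars), grouped by phase and coloured by it. All 27 G2/M points lie left of 0 and all 5 inhibitor points right of it, while the interval of each gene reaches across 0.

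Phases overlapped in the size of their folds. Of the replication genes, 13 of 14 had a fold above the G2/M median, and 8 had one above the highest G2/M gene, Mad2l1 (-0.28 ± 0.32 in the authors' deposited table). The corresponding numbers for G1/S entry were 9 and 6 of 10. A fold of -0.5 or lower was found for 23 of 27 G2/M genes, 2 of 14 replication genes and 2 of 10 genes of G1/S entry. Among the 14520 genes with a mean of at least 0 log2 CPM, 1.84% had a fold at or below the G2/M median and 20.6% at or below the replication median. Over all 20138 genes, those of low expression included, the shares were 6.28% and 24.9%. The difference between phases was not tested, because the genes of a phase are not replicates and no values per animal entered this description.

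**Figure D2:**
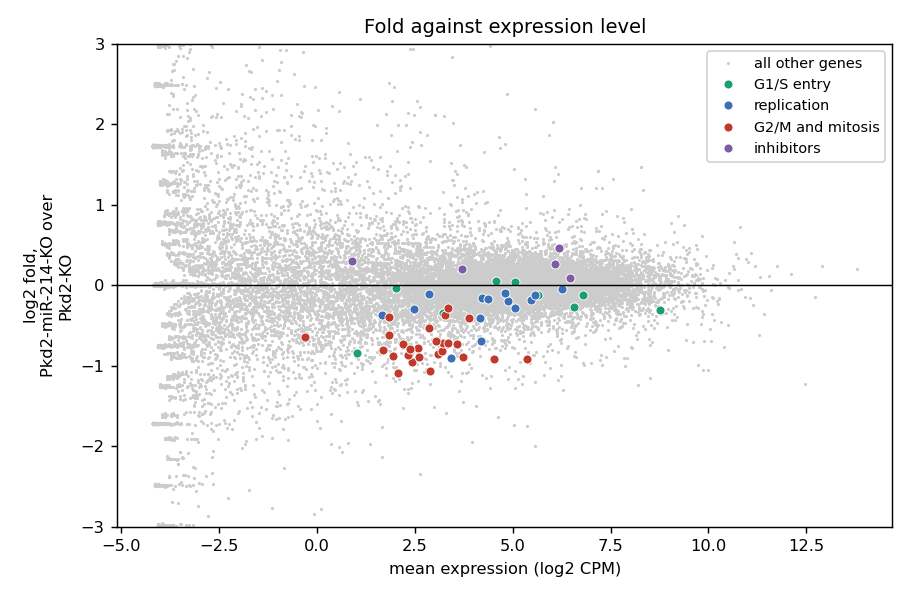
Log2 fold (y axis) against mean expression in log2 CPM (x axis) for all genes (grey) and the 56 cycle genes by phase (colours); 263 genes with folds beyond 3 in size are outside the axis. Most G2/M genes, at a median level of 2.88 log2 CPM for the phase, sit toward the lower edge of the genes of their expression. Some, such as Mad2l1 (-0.28) and Bub1b (-0.36), lie further inside, and the inhibitors sit above 0.

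Among regulators of mitotic entry, the kinase gene Plk1, which drives centrosome maturation and spindle assembly, had the lowest fold of all members and the smallest p of the G2/M genes. Plk1 lies on chromosome 7 from 122159439 to 122169873 (plus strand, GENCODE M21). It stood at a log2 fold of -1.08 ± 0.55 (0.472 times), with an approximate 95% interval of -2.17 to 0.00 and p = 0.0508 before adjustment, in the authors' deposited table. Cdk1, the kinase that triggers mitosis, had -0.73 ± 0.47 in the authors' deposited table. Its partners Ccnb1 (-0.79 ± 0.62), Ccnb2 (-0.89 ± 0.66) and Ccna2 (-0.89 ± 0.62), the B-type and A-type cyclins, had similar folds in the authors' deposited table. Cdc25c, a phosphatase that activates Cdk1, stood at -0.64 ± 0.65 in the authors' deposited table and was the member with the lowest mean level, -0.30 log2 CPM. The Aurora kinase genes Aurka and Aurkb, which act at spindle poles and at centromeres, had folds of -0.61 ± 0.50 and -0.88 ± 0.62 in the authors' deposited table. Every one of these 8 intervals included 0.

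Genes that build the spindle and the cleavage plane had folds of the same order. Kif20a, a kinesin of the central spindle, had the second lowest fold (-1.07 ± 0.63, p = 0.0885 before adjustment in the authors' deposited table). Kif11, the motor that separates spindle poles, had -0.85 ± 0.56, and Kif23, a motor of the midbody, -0.40 ± 0.29 in the authors' deposited table. Tpx2 (-0.81 ± 0.54), Nusap1 (-0.69 ± 0.56) and Prc1 (-0.72 ± 0.62), which assemble or bundle spindle microtubules, had folds close to each other in the authors' deposited table. Birc5, the survivin subunit of the chromosomal passenger complex with Aurkb, had -0.96 ± 0.61 in the authors' deposited table.

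A centromere gene had the next smallest p of the phase after Plk1. Cenpa, the histone variant that marks centromeres, had -0.73 ± 0.40 (p = 0.0671 before adjustment in the authors' deposited table), with a smaller error than most G2/M genes. Cenpf (-0.71 ± 0.61) and the kinetochore motor gene Cenpe (-0.53 ± 0.51) had wider errors in the authors' deposited table. Folds of the checkpoint genes were -0.80 ± 0.69 for Bub1, -0.36 ± 0.36 for Bub1b and -0.28 ± 0.32 for Mad2l1 in the authors' deposited table, and their intervals overlapped. The genes of the anaphase promoting complex pathway, its activator Cdc20 (-0.78 ± 0.51) and its ubiquitin-conjugating enzyme Ube2c (-0.86 ± 0.57), lay close to the median of the phase in the authors' deposited table.

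General markers of dividing cells showed the same size of difference. Mki67, which encodes the Ki-67 antigen used to count cycling cells in tissue, had a log2 fold of -0.91 ± 0.65 (0.532 times) and the highest mean level of the G2/M genes, 5.36 log2 CPM, in the authors' deposited table. Top2a, the topoisomerase that untangles replicated chromosomes, had the same fold of -0.91, with an error of 0.62, in the authors' deposited table. Foxm1 and Mybl2, the transcription factors of the G2/M programme, had -0.71 ± 0.51 and -0.39 ± 0.39 in the authors' deposited table.

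In replication, Tk1 and Mcm5 had the lowest folds. Tk1, the thymidine kinase of S phase cells (chromosome 11, 117815526 to 117826092, minus strand), had a log2 fold of -0.91 ± 0.47 (0.534 times) with an approximate 95% interval of -1.82 to 0.01 and p = 0.0522 before adjustment in the authors' deposited table. The other nucleotide genes had folds nearer to 0, with -0.18 ± 0.21 for Rrm1 and -0.17 ± 0.32 for Rrm2, the subunits of ribonucleotide reductase, and -0.16 ± 0.25 for Tyms, thymidylate synthase, in the authors' deposited table. Mcm5 (chromosome 8, 75109569 to 75128439, plus strand) had -0.69 ± 0.41 (p = 0.0934 before adjustment in the authors' deposited table). Its protein is 1 of 6 subunits of the MCM helicase, and the other subunits ranged from -0.41 ± 0.31 (Mcm3) over -0.28 ± 0.20 (Mcm7), -0.19 ± 0.29 (Mcm2) and -0.12 ± 0.30 (Mcm6) to -0.10 ± 0.24 (Mcm4) in the authors' deposited table. The 6 intervals overlapped, so the subunits were not distinguished from each other.

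Licensing and fork genes had small negative folds. Cdc6 and Cdt1, which load the helicase at origins, had -0.36 ± 0.52 and -0.11 ± 0.35 in the authors' deposited table. Gins2, a subunit of the active helicase, had -0.29 ± 0.40, and Pcna, the sliding clamp of the polymerases, -0.04 ± 0.23 in the authors' deposited table. The Pcna interval of -0.49 to 0.41 does not include the G2/M median of -0.78. Lower limits of Mcm4, Mcm6, Mcm7, Mcm2, Rrm1 and Tyms likewise lay above that median in the authors' deposited table, whereas those of Tk1, Mcm5, Mcm3, Cdc6, Gins2, Rrm2 and Cdt1 reached below it. The median has an error of its own, which these limits leave out, so this is a description and no test between phases.

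At G1/S entry the E-type cyclin Ccne1 (chromosome 7, 38097984 to 38107534, minus strand) had the lowest fold, -0.84 ± 0.54 (0.56 times) with p = 0.122 before adjustment, while its paralog Ccne2 was at -0.03 ± 0.50 in the authors' deposited table. E2f1, the activating E2F, had -0.51 ± 0.43 in the authors' deposited table. D-type cyclins, which sense growth signals, had -0.30 ± 0.25 (Ccnd1), -0.12 ± 0.27 (Ccnd2) and -0.11 ± 0.19 (Ccnd3) in the authors' deposited table. Ccnd1 was measured at the highest mean level of the 56 genes, 8.75 log2 CPM in the authors' deposited table. The kinases of the D cyclins, Cdk4 and Cdk6, had -0.26 ± 0.21 and -0.35 ± 0.31 in the authors' deposited table. Positive values were found for Cdk2, the kinase of the E and A cyclins (0.06 ± 0.21), and for the growth-control factor Myc (0.04 ± 0.33) in the authors' deposited table.

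Inhibitors of the cycle were the phase in which no member had a negative fold. Other genes of the Cdkn1 and Cdkn2 families were kept in a wider list described below. There Cdkn1c had -0.05 ± 0.32, Cdkn2b 0.25 ± 0.26 and Cdkn2d 0.32 ± 0.35 in the authors' deposited table. Cdkn1b (chromosome 6, 134920401 to 134925513, plus strand), which encodes p27, a brake on Cdk2, had the highest fold of the members, 0.47 ± 0.29 (1.38 times), with an approximate 95% interval of -0.09 to 1.03 and p = 0.101 before adjustment in the authors' deposited table. Rb1, the retinoblastoma gene, had 0.27 ± 0.23, and Cdkn2c, an inhibitor of Cdk4 and Cdk6, 0.20 ± 0.27 in the authors' deposited table. Cdkn2a stood at 0.30 ± 0.49 in the authors' deposited table. That locus encodes an inhibitor of Cdk4 and a stabiliser of p53 from separate promoters, and 1 symbol in the table covers both. Cdkn1a, the p53-induced inhibitor p21, was nearest to 0 at 0.09 ± 0.31 in the authors' deposited table.

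Precision differed between phases. The median approximate SE was 0.56 for G2/M genes, 0.31 for replication, 0.29 for G1/S entry and 0.29 for inhibitors, against 0.26 over the 14520 genes with at least 0 log2 CPM. Set against genes of similar expression in 20 bins, the SE of a G2/M gene lay at a median percentile of 94.1, that of a replication gene at 83.2 and that of a G1/S gene at 71.4. A lower limit under -1, a level below 0.5 times the control, was within the interval for 25 of 27 G2/M genes, 5 of 14 replication genes, 3 of 10 G1/S genes and 0 of 5 inhibitors.

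Genes of the cycle outside the 56 members were taken from 4 wider lists. Of 65 other G2/M genes, 60 had a negative log2 fold in the authors' deposited table, with a median of -0.65, 0 past the adjusted threshold and 2 with an unadjusted p under 0.05, both lower (3.08% of the list, against 4.82% of all genes and 1.71% for lower ones). These were Ncapd2, a condensin subunit (-0.69 ± 0.29, adjusted p = 0.735 by the likelihood ratio test), and Fam64a, a mitotic gene (-1.18 ± 0.60, adjusted p = 1), in the authors' deposited table. Cenpm, a centromere gene, had -1.20 ± 0.62 in the authors' deposited table. The 5 genes of that list with positive folds in the authors' deposited table were Smc4 (0.29), Cdc25b (0.17), Cdc25a (0.10), Pttg1 (0.10) and Hmgb2 (0.04). Of the 7 condensin genes in the list, 6 had a negative fold in the authors' deposited table, with a median of -0.24. They ran from Ncapg at -1.03 ± 0.66 to Smc4 at 0.29 ± 0.20 in the authors' deposited table, with overlapping intervals.

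Of 42 other replication genes, 29 had a negative fold, the median was -0.10 and 0 had an unadjusted p under 0.05 in the authors' deposited table. Mcm10 (-0.80 ± 0.45) and Cdc45 (-0.56 ± 0.40), which activate the helicase, had its smallest p-values, followed by Orc2 (0.27 ± 0.20) in the authors' deposited table. Origin recognition genes had 5 of 6 positive folds, with Orc1 as the exception (-0.38 ± 0.63 in the authors' deposited table). A list of 20 genes of E2F factors, pocket proteins, the MuvB complex and other G1/S regulators had 8 negative folds and a median of 0.03 in the authors' deposited table. The 7 E2F genes in it had 4 negative folds and a median of -0.15 in the authors' deposited table. E2f7 and E2f8, repressor E2Fs that are themselves induced in cycling cells, had -0.97 ± 0.57 and -0.83 ± 0.64, and Lin9 of the MuvB complex 0.41 ± 0.26, in the authors' deposited table. Cdc25a was listed both there and with the G2/M genes. In the list of 20 other inhibitors and p53 genes, 13 were positive and 7 negative, the median was 0.12 and 1 had an unadjusted p under 0.05 in the authors' deposited table (5.00% of the list, near the 4.82% of all genes). That was Btg2, an antiproliferative p53 target, at 0.73 ± 0.29 (adjusted p = 0.62 by the likelihood ratio test), followed by Pmaip1 (0.38 ± 0.21) and Sesn1 (0.22 ± 0.21) in the authors' deposited table.

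**Figure D3:**
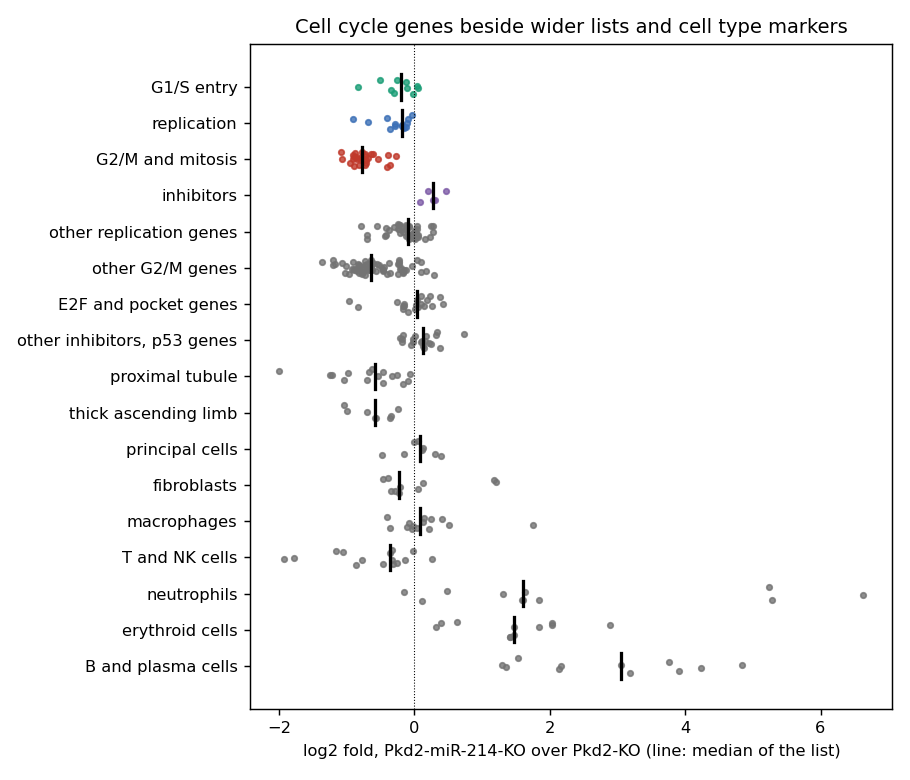
Log2 fold (x axis) of every gene of the 4 phases, of the 4 wider cycle lists and of 9 cell type marker lists (points, 1 per gene; vertical scatter within a row has no meaning), with the median of each list as a black line. The G2/M rows lie near -0.78 and -0.65, close to the proximal tubule and thick ascending limb rows, the B and plasma cell, neutrophil and erythroid rows extend to the right, and the T and NK cell row lies mainly left of 0.

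Phases also differed in the sequence of their promoters, a property that no expression value entered. Promoter windows of 300 bases, from 250 before to 50 after the annotated start (RefSeq, GRCm38.p6), were found for 43 of the 56 members and for 14279 genes of the table. Both strands were searched for 3 motifs: CCAAT, the box bound by NF-Y; TTTGAA, the cell cycle genes homology region (CHR) bound by the MuvB complex; and an E2F core, for which the words TTCCCGC and TTGGCGC were counted, as well as TTCGCGC and also TTGCCGC. The reverse of TTGGCGC shares letters with CCAAT and can overlap it, as in Ccnb1, and cores on opposite strands can overlap each other, as in Mcm5. The CHR was present in 14 of 21 G2/M promoters (66.7%), 1 of 12 replication promoters (8.33%), 0 of 6 of G1/S entry and 0 of 4 of inhibitors, against 15.6% of all 14279 genes. An E2F core was present in 8 of 12 replication promoters (66.7%), 3 of 21 G2/M promoters (14.3%), 1 of 6 of G1/S entry (16.7%) and 2 of 4 of inhibitors, against 16.0% of all genes. For E2f1, Cdk6 and Cdc6, among others, the window lies inside the gene as GENCODE M21 draws it. Sequence before the outermost start of these genes was not searched. Nor were other spellings of the 3 motifs, so a promoter without a match can hold a variant. CCAAT was found in 17 of 21 G2/M promoters (81.0%) and 8 of 12 replication promoters (66.7%), against 41.9%.

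**Figure D4:**
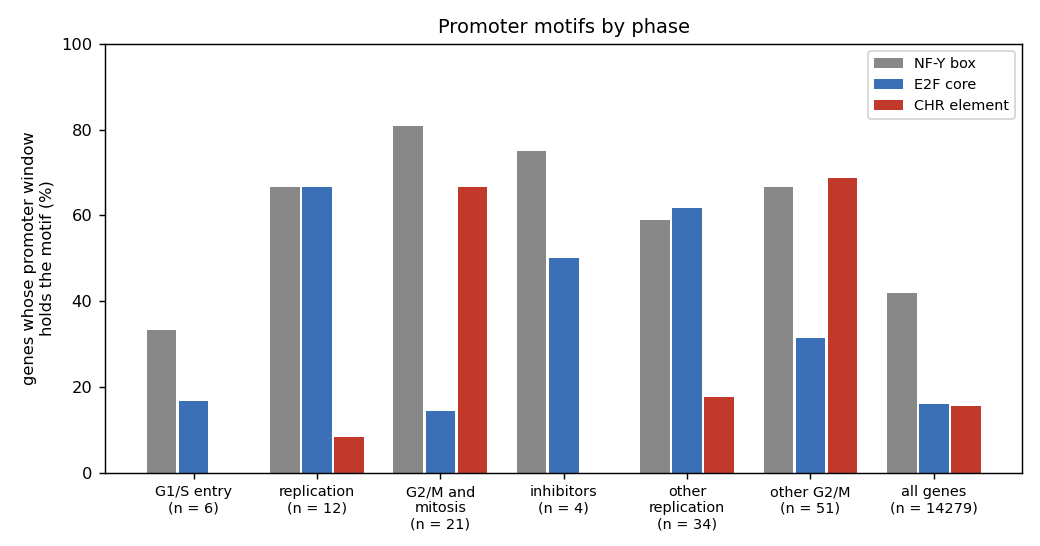
Share of genes whose promoter window holds each motif (y axis, percent; bars from 0) by phase, for 2 wider lists and for all genes, with the number of genes with a promoter in brackets. The CHR bar is at 66.7% for G2/M genes and 68.6% for the other G2/M genes, against 15.6% for all genes, and the E2F bar is highest for the replication genes.

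Of the wider lists, a CHR was in 35 of 51 other G2/M promoters (68.6%) and an E2F core in 21 of 34 other replication promoters (61.8%). The separation between phases was less sharp there, since 7 of 16 promoters of the wider G1/S list held a CHR (43.8%), against 0 of 6 of the G1/S members, and 16 of 51 of the other G2/M genes an E2F core (31.4%). Differences between these shares were not tested. Most CHR matches of G2/M genes were close to the start. A match beginning within 50 bases of it was held by 13 of 21 G2/M promoters (61.9%), against 3.99% of all promoters. Within the G2/M genes, the 14 with the word TTTGAA had a median log2 fold of -0.76 and the 7 without that exact word -0.69, with ranges that overlapped. A match is a run of letters in a window and no measurement of binding.

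**Figure D5:**
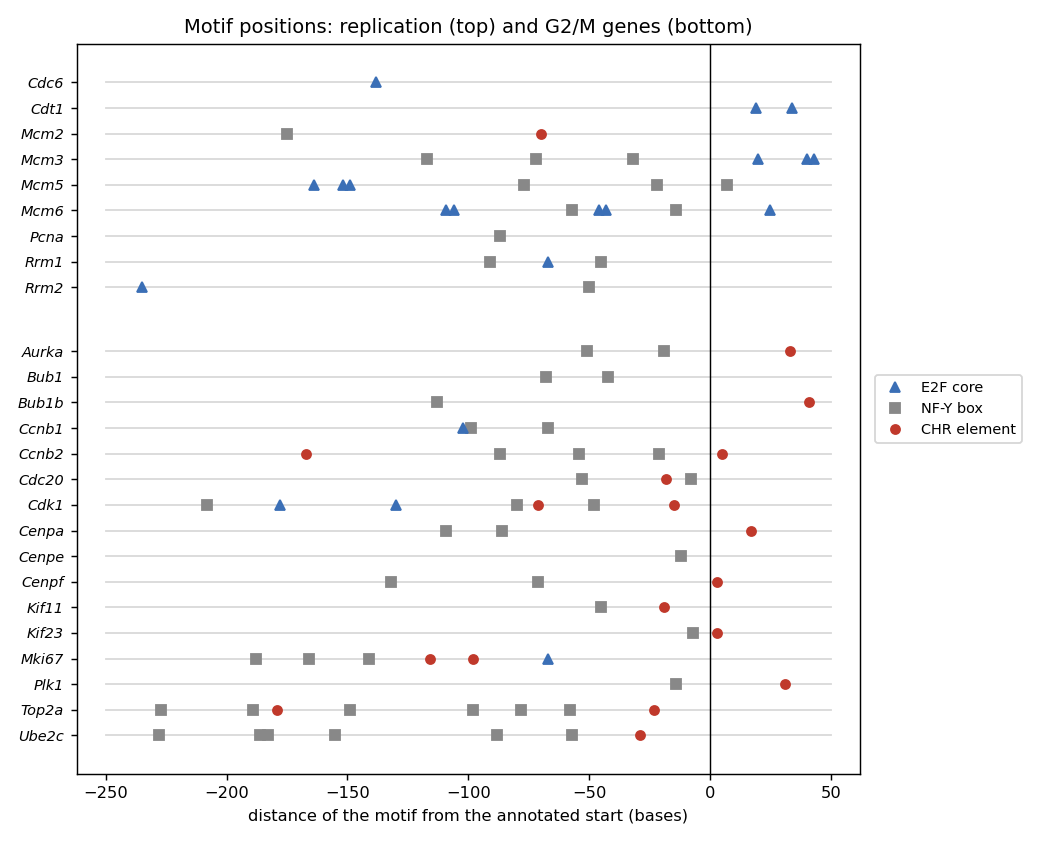
Position of each motif match (x axis, bases from the annotated start at 0) in replication promoters (upper block) and G2/M promoters (lower block) that hold at least 1 match and have 1 annotated start; grey lines span the window. CHR matches (circles) cluster around the start in the G2/M block, while E2F cores (triangles) fall mainly in the replication block.

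Promoters of 5 members are shown because they carry the contrast between phases, and were picked after their matches were known. They are printed 5′ to 3′ on the strand of the gene, with every match to the 3 motifs in capitals. Plk1, Cenpa and Cdk1 are G2/M genes with CCAAT or its reverse ATTGG upstream and a CHR near the start, Mcm5 has E2F cores and CCAAT, and Cdkn1b, an inhibitor, has CCAAT alone.
Plk1 promoter, chr7:122159185-122159484, plus strand: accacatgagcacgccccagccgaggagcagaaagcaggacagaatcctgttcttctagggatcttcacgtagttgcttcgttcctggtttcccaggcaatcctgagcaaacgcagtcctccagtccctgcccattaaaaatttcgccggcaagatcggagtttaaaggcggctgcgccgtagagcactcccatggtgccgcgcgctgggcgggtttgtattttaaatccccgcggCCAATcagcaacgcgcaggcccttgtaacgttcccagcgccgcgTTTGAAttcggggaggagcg
Cenpa promoter, chr5:30666636-30666935, plus strand: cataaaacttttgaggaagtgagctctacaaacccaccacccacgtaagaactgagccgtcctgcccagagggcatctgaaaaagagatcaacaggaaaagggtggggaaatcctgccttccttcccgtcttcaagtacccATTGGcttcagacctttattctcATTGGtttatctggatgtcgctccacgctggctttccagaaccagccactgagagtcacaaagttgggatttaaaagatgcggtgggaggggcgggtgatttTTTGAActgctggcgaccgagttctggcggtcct
Cdk1 promoter, chr10:69352863-69353162, minus strand: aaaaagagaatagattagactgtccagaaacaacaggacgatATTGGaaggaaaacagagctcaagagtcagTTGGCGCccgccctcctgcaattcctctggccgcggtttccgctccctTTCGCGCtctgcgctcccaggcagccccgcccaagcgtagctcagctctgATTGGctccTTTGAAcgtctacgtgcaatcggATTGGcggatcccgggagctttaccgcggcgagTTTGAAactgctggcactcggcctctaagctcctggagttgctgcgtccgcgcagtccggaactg
Mcm5 promoter, chr8:75109259-75109558, plus strand: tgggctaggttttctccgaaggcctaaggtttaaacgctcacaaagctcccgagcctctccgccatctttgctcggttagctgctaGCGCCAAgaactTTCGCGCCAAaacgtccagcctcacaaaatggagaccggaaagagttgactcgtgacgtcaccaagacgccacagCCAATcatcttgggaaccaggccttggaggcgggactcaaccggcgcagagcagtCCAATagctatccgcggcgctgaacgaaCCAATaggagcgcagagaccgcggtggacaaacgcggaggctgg
Cdkn1b promoter, chr6:134920151-134920450, plus strand: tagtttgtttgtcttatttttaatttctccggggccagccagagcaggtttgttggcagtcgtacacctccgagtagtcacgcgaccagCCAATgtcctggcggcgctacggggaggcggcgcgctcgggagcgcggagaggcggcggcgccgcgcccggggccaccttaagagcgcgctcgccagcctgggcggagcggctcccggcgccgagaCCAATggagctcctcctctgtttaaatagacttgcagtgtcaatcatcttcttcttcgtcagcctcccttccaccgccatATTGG
The CHR began at position 31 from the start in Plk1 and at position 17 in Cenpa. Cdk1 held 2 CHR matches, 3 CCAAT boxes and 2 E2F cores in its window. The windows of Tk1 and Birc5 held 0 matches to any of the 3 motifs.

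Sites for the miR-214-3p seed had nearly the same share among these genes as among all genes. The 7-base site that pairs with the miR-214-3p seed was present in the longest annotated 3' UTR of 12 of 56 members (21.4%), against 21.3% of 16889 genes (GENCODE M21). For the miR-214-5p seed it was 9 of 56 (16.1%) against 9.40%, a difference that was not tested. The median length of the 3' UTR was 972 bases for members and 1042 for all genes. By phase the miR-214-3p site was held by 3 of 10 G1/S genes, 2 of 14 replication genes, 6 of 27 G2/M genes and 1 of 5 inhibitors. The miR-214-5p site was held by 4 of 10 G1/S genes (Ccnd1, Ccnd2, Ccnd3 and Cdk6) and 2 of 14 replication genes. It was also in 2 of 27 G2/M genes and 1 of 5 inhibitors (Cdkn1a), and these shares were not tested. Of the 12 genes with the miR-214-3p site, Cdk2 and Rb1 had positive folds, and Ccnd1, Cdk6, Mcm6, Gins2, Cdk1, Birc5, Mad2l1, Cenpf, Prc1 and Foxm1 had negative ones in the authors' deposited table. Examples are printed with the 7 bases of the miR-214-3p site in capitals, for Rb1 as the 1 inhibitor with that site and for Foxm1, Birc5 and Ccnd1 as genes of the other direction.
Rb1, chr14:73196939-73196967, minus strand: tccaacatgagCCTGCTGccctcagaagt
Foxm1, chr6:128374170-128374198, plus strand: gtcctccactcCCTGCTGgcaagtgaagt
Birc5, chr11:117853358-117853386, plus strand: agaggctccgaCCTGCTGtcttggttgcc
Ccnd1, chr7:144931232-144931260, minus strand: cacacctctgcCCTGCTGgagaaggttta
Shorter matches, coding sequence and other transcripts were not searched.

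Folds of markers of other cell types, of genes of other organs and of the sex-linked gene Xist are given here because some lay far from 0, and their part in the cycle folds was not tested. All 16 proximal tubule markers had negative folds in the authors' deposited table (median -0.58, 3 with an unadjusted p under 0.05), among them Slc22a12 at -1.24 ± 0.38 and Slc7a13 at 0.251 times the control level. All 8 markers of the thick ascending limb were negative in the authors' deposited table too (median -0.58, 3 with such a p), with Ppp1r1a at -0.99 ± 0.38 and Cldn19 at -0.58 ± 0.23. T and NK cell markers were negative in 14 of 15 cases (median -0.36, 1 with such a p), with Gzmb at -1.92 ± 0.81 and Gzma at -1.78 ± 0.97, in the authors' deposited table. Positive folds were found for 11 of 11 B and plasma cell markers (median 3.05, 9 with such a p; Ms4a1 4.23 ± 1.14, Cd79a 3.77 ± 1.11) and 10 of 11 neutrophil markers (median 1.61, 7 with such a p; Ngp 6.63 ± 1.75, Mpo 5.29 ± 1.63) in the authors' deposited table. Ngp and Mpo stood at low mean levels there, -0.48 and -2.28 log2 CPM. The neutrophil marker of the highest mean level, Csf3r (2.96 log2 CPM), had -0.16 ± 0.32, and Cxcr2 had 0.11 ± 0.45. All 11 measured erythroid markers were positive too (median 1.47, 4 with such a p; Hbb-bt 2.03 ± 0.87) in the authors' deposited table, where Hbb-bt and Hbb-b2 carry identical values and count as 1 measurement. Hbb-bs and Hbb-b1 share a fold of 1.47 there, and Hba-a1 and Hba-a2 one of 1.42, each pair at the same mean level. The 11 markers are therefore fewer separate measurements, and the median is the fold of the Hbb-bs and Hbb-b1 pair. The counts above with an unadjusted p under 0.05 are 18.8% of proximal tubule, 37.5% of thick ascending limb and 6.67% of T and NK markers. For B and plasma cell, neutrophil and erythroid markers they are 81.8%, 63.6% and 36.4%, against 4.82% of all genes. The T and NK share was near that of all genes. Macrophage (median 0.08; Cd163 1.76 ± 0.35, Mrc1 0.51 ± 0.24), fibroblast (-0.22; Dcn 1.18 ± 0.31, Lum 1.21 ± 0.47) and principal cell markers (0.08; Hsd11b2 -0.48 ± 0.31, Scnn1b 0.40 ± 0.27) had both signs in the authors' deposited table. Of the markers in these 9 lists, Cd163 alone passed the adjusted threshold (adjusted p = 0.00126 by the likelihood ratio test in the authors' deposited table). Of all genes, 0.124% passed it. Genes best known from liver and adrenal gland, chosen after their values were seen, had positive folds with wide errors. Alb, the albumin gene, had 6.64 ± 2.05 at a mean of 7.11 log2 CPM in the authors' deposited table. Ahsg and Apoa1, further liver genes, had 6.64 ± 1.98 and 5.92 ± 1.63, whereas Ttr, another, had 0.35 ± 0.38, in the authors' deposited table. Th and Dbh, enzymes of catecholamine synthesis, had 6.05 ± 1.63 and 5.27 ± 1.31, and Cyp11b2, aldosterone synthase, 6.83 ± 2.31, all at mean levels below -2 log2 CPM in the authors' deposited table. Xist, expressed from an X chromosome in female cells, had a fold of 10.21 ± 2.36 (adjusted p = 0.0168 by the likelihood ratio test), and the Y-linked genes Ddx3y and Uty -0.23 ± 1.54 and -0.39 ± 1.66, in the authors' deposited table.

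Counting of overlapping genes bears on some members. Exons of 22 of the 56 genes overlap those of another gene in GENCODE M21, in 20 cases on the opposite strand, and whether reads were assigned by strand is not given in the sources used here. Plk1, Tk1, Kif20a, Cdk4, Ccnd1, Cdk6 and Rb1 are among them. Pseudogenes named after Ccnd3, Pcna, Tyms, Ccnb1 and Ccnb2 exist, and reads shared with such copies make the folds of these genes uncertain. Without the 22 genes the G2/M median was -0.73 over 17 genes and that of replication -0.17 over 11, while for G1/S entry it was -0.51 over the 3 genes left.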

How the data were processed

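RNA sequencing of kidneys from 3 Pkd2-KO and 3 Pkd2-miR-214-KO mice was compared through 1 table with 20138 gene symbols. TopHat2 2.0.12 and edgeR are listed as tools, and mm10 as the build, in the submitters' processing notes, without role or order. Counter, filters, normalization factors and strand setting: not given in the sources used here. The labels name a stranded total RNA kit and the series text polyA selection, and the sources do not settle which was used. Per the file headers, the authors deposited a log2 fold, a mean log2 CPM, a likelihood ratio (a score on 1 degree of freedom), and for each gene a p-value before and after adjustment. The chi-square tail of the ratio returned each deposited p-value within 6.25e-15, and the Benjamini-Hochberg adjustment the adjusted one within 5.10e-14. Counts per library were not used here, so depth is unknown, group means with SDs are missing, and variation among animals is seen only as the authors' test used it. The labels do not pair animals across genotypes or give litter or sex.

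The members and all lists were chosen with earlier results of these data known. The header does not state the direction of the fold, which was read from Mir214. The approximate SE divides the size of a log2 fold by the root of the ratio, and the 95% interval is 1.96 SE on either side; it is poor at low expression. Genes described were all 56 members by role; the 3 smallest p, the extremes and any unadjusted p under 0.05 in each phase; the 3 smallest p of each wider list; and the 2 of each marker list, of which 1 gene is not reported here. Further genes of the wider lists, the neutrophil markers Csf3r and Cxcr2, and the genes of other organs were named after their values were seen. Alternatives were minimum levels of 0 and 2 log2 CPM, recentred folds, a weighted mean, 5 genes moved between phases, the fold of largest size left out, and an unadjusted p of 0.1. Calculations ran in Python 3.11.15 with scipy 1.17.1, numpy 2.4.6 and pandas 2.3.3, plots in matplotlib 3.10.9. Of the 49 RefSeq promoter windows of members, 39 ended in sequence found in a GENCODE transcript of the same gene and strand.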

Additional observations from a re-analysis of the deposited data

How the results depend on the processing

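Of 70 alternative values of the phase medians, the shares of negative folds and the count of members past the unadjusted limit, 68 kept their sign and moved by less than the median approximate SE of the phase, or stayed within 1.5 times. Some of these values could not change. The median fold of all genes was 0.00, so subtracting it had no effect, and a minimum of 0 log2 CPM removed members from G2/M only. The SE used as the limit was 0.56 for G2/M genes, so the count of 68 is a loose measure of stability. The median of G1/S entry moved from -0.19 to -0.51 without genes whose exons overlap another gene, an alternative chosen after seeing the data, which leaves 3 genes. The count of members past the unadjusted limit went from 0 to 5 with the limit at 0.1. The G2/M median lay between -0.78 and -0.65, the latter as a weighted mean. The share of negative G1/S folds was 70.0% after subtracting the median fold of genes of similar expression. Leaving out each animal in turn was not run, because no values per library were used. No paired analysis was possible because the labels give no pairing of animals and the result comes from the authors' fitted table. Depth is unknown, so the precision of each fold is known only from its approximate SE.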
